A study of Rattus norvegicus with 33 samples.

Results

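The interaction between estradiol benzoate (EB), an estrogen ester injected into newborn male rats, and testosterone plus estradiol (T+E) implants given in adulthood was examined in prostate RNA from postnatal day (PND) 145. It was read from 13 of the 33 one-colour Agilent arrays in the series, chosen by age and treatment in the sample titles. For each gene the interaction was the mean log2 level in EB+T+E rats, minus that in EB rats, minus that in T+E rats, plus that in control rats. A value of 0 means that EB+T+E rats had the level given by adding both single effects on the log2 scale. Of 23346 genes tested, 180 departed from that sum at a Benjamini-Hochberg adjusted p under 0.05 (0.771%), 149 above it (0.638%) and 31 below it (0.133%). Unadjusted p fell under 0.05 for 3153 genes.

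All rats were Sprague-Dawley (Hsd:SD) males. EB+T+E rats (3 arrays) received EB at 2.5 mg/kg under the skin on PND 1, 3 and 5, and from PND 90 carried 2 silastic implants of testosterone and 1 of estradiol. EB rats (4 arrays) received the same injections and carried 3 empty implants. T+E rats (3 arrays) received vehicle injections and the hormone implants. Control rats (3 arrays) received vehicle and 3 empty implants. At PND 145 implants had been in place for 55 days, and in the PND 100 groups, used below for comparison, for 10 days. The sources give 3 to 4 litters or animals per group and do not tie each array to an animal, so p-values here reflect only how these samples vary, and the number of arrays limits the precision. The sample labels call the tissue whole prostate, whereas the series title names the dorsolateral lobes.

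Estrogen given around birth is known to alter how the rodent prostate develops and responds to hormones later in life. Raised estrogen with testosterone in adult rats is a long-used model of prostatic inflammation and dysplasia, and estradiol raises prolactin release from the pituitary. Plasma cells are the antibody-secreting end stage of B cells: they carry immunoglobulin mRNA in bulk, join antibodies through the J chain and depend on survival signals through receptors of the tumour necrosis factor family. Beta-casein and other milk protein genes are classical targets of the prolactin receptor and its STAT5 signal.

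Levels are given as log2 ratios of a probe's processed signal to the 75th percentile of its array, which ran from 1694 to 3764 over the 13 arrays. Between 61.5% and 68.7% of spots on each array were well above background. Of 16 genes for secreted products of the dorsolateral prostate, 13 to 15 were well above background on each array, and Pate4 was not on any EB array. The array medians of this list ran from -0.02 to 2.93 in EB+T+E, 2.61 to 3.66 in EB, 1.73 to 2.83 in T+E and 2.21 to 3.72 in control rats. Among the bright ones, Msmb, beta-microseminoprotein, averaged 4.81 ± 0.16 in EB+T+E, 5.42 ± 0.28 in EB, 6.03 ± 0.14 in T+E and 5.90 ± 0.12 in control rats (SD, n = 3, 4, 3 and 3), and Pbsn, probasin, averaged 4.41 ± 0.25 in EB+T+E, 5.00 ± 0.54 in EB, 5.75 ± 0.40 in T+E and 5.77 ± 0.14 in control rats. Control array 2 stood apart: probes for 25 of 25 spermatid genes were well above background there, against 18 and 19 on the other control arrays, and their summed signal was 10200% of the array's 75th percentile, against 170% and 289%. In EB+T+E arrays that sum was 73.4% to 108%, in EB arrays 77.1% to 142% and in T+E arrays 88.2% to 125%. Nerve markers summed to 4370%, 2420% and 806% in EB+T+E arrays, 306% to 2950% in EB arrays, 340% to 543% in T+E arrays and 319% to 435% in control arrays, and skeletal muscle markers were highest on EB array 2, at 17600%. The part of these tissues in the results was not tested. Without control array 2 the interaction was called for 87 genes.

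For each treatment alone, EB without T+E was called for 133 (0.57%; 45 higher, 0.193%, and 88 lower, 0.377%) and T+E without EB for 89 (0.381%; 67 higher, 0.287%, and 22 lower, 0.0942%). Without control array 2 these counts were 6 for EB without T+E and 53 for T+E without EB. EB under T+E was called for 4992 (21.4%) and T+E after EB for 5350 (22.9%), comparisons that share the EB+T+E arrays. Of the 149 genes above the sum, EB without T+E was called lower for 3 and higher for none, and T+E without EB lower for 1 and higher for none. EB under T+E was called higher for 147 of the 149 (9.69% of all genes), and T+E after EB for 145 (10.6% of all genes). Of the 31 below the sum, T+E after EB was called lower for 16 (12.3% of all genes) and higher for 1.

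Most departures above the sum were genes high in EB+T+E rats alone. Among the 149, the EB+T+E mean was the highest of the 4 groups for 144, and every EB+T+E array lay above every other array for 131 (8.43% of all genes tested), a pattern that the contrast itself favours. For 54 of them no array of the other 3 groups was well above background. The median interaction was 4.88, beside a median of -0.15 over all genes. Their median effect of EB without T+E was 0.03 and that of T+E without EB was -0.01, whereas that of EB under T+E was 4.40 and that of T+E after EB was 4.97. In a tissue sample, fewer cells of a type and less RNA per cell cannot be told apart. Where every array of a group is not well above background, the interaction uses the measured log2 value, and the ratio is given as a bound: the bright group's mean over the dim group's mean of, per array, the higher of the lowest signal among probes well above background and the probe's own signal.

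Probes annotated as immunoglobulin chains made up 25 of the 149 genes above the sum, and genes of antibody-secreting cells were called beside them. Of the 149, 73 had a gene symbol. A probe without a name was counted as a gene of its own, so a transcript could be counted more than once. A probe without the annotation can share a transcript with an annotated one, so the 25 counts descriptions only. Of 49 probes annotated as immunoglobulin chains, 25 lay above the sum (0.638% of all genes) and none below (0.133% of all genes). Interactions of the 25 ran from 3.34 to 11.05, with a median of 7.40. On EB+T+E arrays 46 to 48 of the 49 were well above background, against 8 to 17 on EB, 7 to 10 on T+E and 5 to 11 on control arrays. A probe was kept where 3 of the 33 arrays detected it, which the EB+T+E arrays alone could supply. These counts thus partly follow from the filter and are a description only. The summed signal of the 49 was 20000%, 20600% and 12800% of the 75th percentile in EB+T+E arrays, 794%, 91.8%, 633% and 205% in EB arrays, 43.4%, 95.9% and 54.5% in T+E arrays and 24.7%, 32.4% and 107% in control arrays. The 3 EB+T+E arrays were thus far above all 10 others, and array 3 was the lowest of the 3. On the B cell and plasma cell list, 8 of 26 measured genes lay above the sum (0.638% of all genes) and none below (0.133% of all genes). The list median was 3.86. EB under T+E was called higher for 21 of the 26 (9.69% of all genes), and T+E after EB for 22 (10.6% of all genes).

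Jchain, the joining chain of polymeric antibodies, had levels of 4.50, 4.62 and 2.90 in EB+T+E arrays, -2.78, -4.27, -3.49 and -3.81 in EB arrays, -4.58, -3.49 and -3.99 in T+E arrays and -5.68, -4.77 and -5.44 in control arrays. Every EB+T+E array was above every other, and the EB and T+E arrays overlapped. The sum of both effects gave -2.31, against an observed mean of 4.00, an interaction of 6.31 ± 1.24 (SE; limma adjusted p = 0.0133). Jchain was 8.02 ± 0.90 higher in EB+T+E than in T+E rats (adjusted p = 3.71e-06) and 7.59 ± 0.84 higher in EB+T+E than in EB rats (adjusted p = 1.73e-06). Within slides 3 and 4, which each held all 4 groups, its interaction was 7.61 and 4.94. Without EB+T+E array 2 or T+E array 1 the call was lost, with an adjusted p of 0.058 without EB+T+E array 2.

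Tnfrsf17, the receptor BCMA through which plasma cells receive survival signals, had levels of -0.74, -1.002 and -3.17 in EB+T+E arrays. It was not well above background on any of the other 10 arrays, where measured values lay between -9.53 and -7.91. EB+T+E was at least 44.6-fold higher than EB, at least 41.9-fold higher than T+E and at least 46.0-fold higher than control, and the interaction on measured values was 7.20 ± 1.30 (adjusted p = 0.00825). Mzb1, a chaperone that helps assemble antibodies in the endoplasmic reticulum, had levels of -1.61, -1.96 and -3.72 in EB+T+E arrays and was likewise not well above background on the other 10. It was at least 25.8-fold higher in EB+T+E than in EB, at least 24.2-fold higher than in T+E and at least 26.6-fold higher than in control rats, with an interaction of 6.43 ± 1.19 (adjusted p = 0.00941). Both genes kept an adjusted p under 0.05 when each of the 13 arrays was left out in turn, which describes these same arrays. The filter of 17 arrays left both genes out. Mzb1 lost its call with the replicate number within age as a block.

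Fcrla, an Fc receptor-like protein of B cells, was measured above background in all groups. Its levels were 0.13, -0.20 and -2.10 in EB+T+E arrays, -4.46, -4.35, -3.77 and -4.42 in EB arrays, -4.71, -4.40 and -4.89 in T+E arrays and -4.03, -4.37 and -4.84 in control arrays. The EB, T+E and control arrays overlapped and all EB+T+E arrays lay above them, with an interaction of 3.78 ± 0.71 (adjusted p = 0.0108) that was kept without each array in turn. Pou2af1, a coactivator that B cells use with octamer-binding factors, stood at 2.03, 1.69 and -0.996 in EB+T+E arrays and between -5.72 and -4.05 on the other 10, an interaction of 5.57 ± 1.17 (adjusted p = 0.0212) that was lost when control array 1, EB+T+E array 1 or 2, or T+E array 1 was left out. The remaining called list members were Ms4a1 (CD20) at 6.99 ± 1.71, Cd79b, part of the B cell receptor, at 6.88 ± 1.58 and Fcmr, the receptor for IgM, at 2.85 ± 0.67. Their limma adjusted p were 0.0483, 0.0371 and 0.0414. Cd79b was not well above background on any EB, T+E or control array, and EB+T+E was at least 63.6-fold higher than each of those groups. Ms4a1 was not well above background on any T+E or control array, and EB+T+E was at least 136-fold higher than either.

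**Figure D1:**
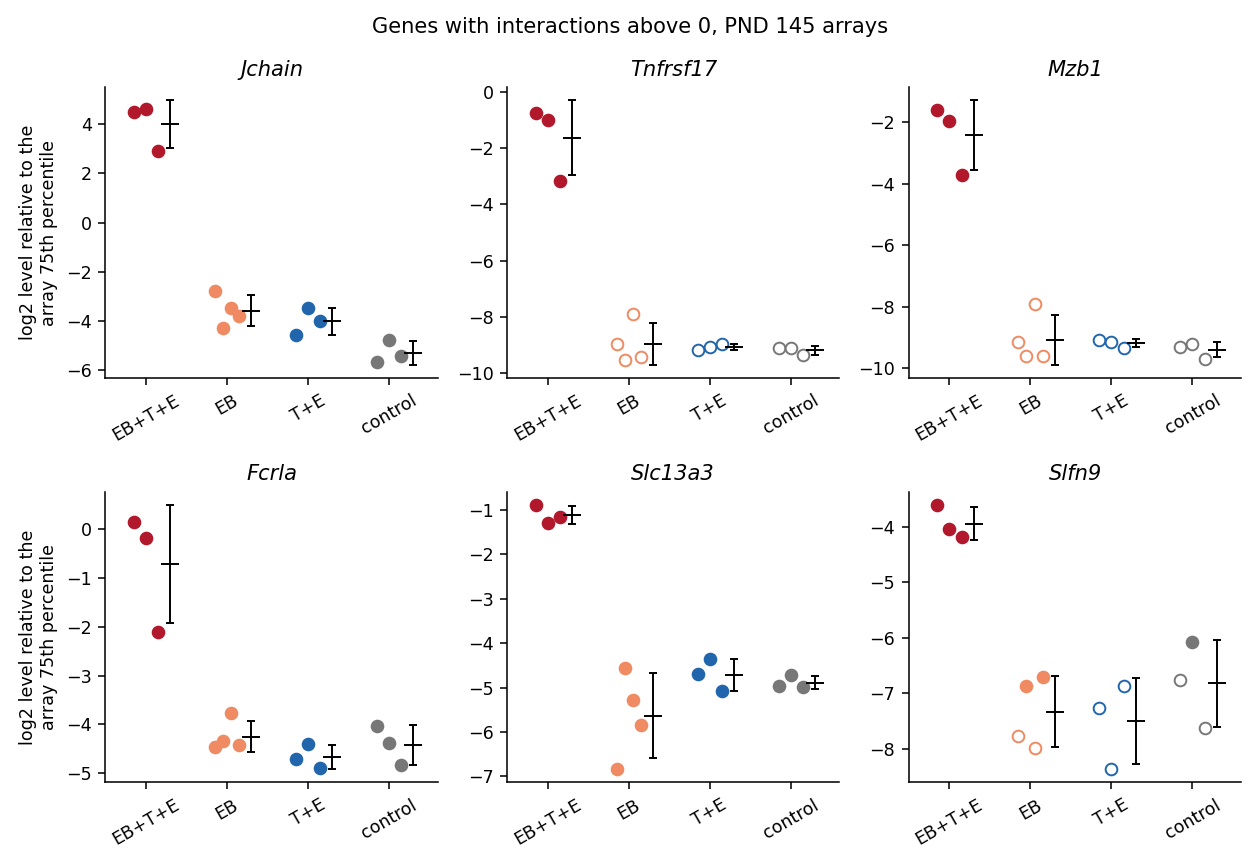
Log2 level relative to the array's 75th percentile (vertical axis) on each PND 145 array, by group from EB+T+E at the left through EB and T+E to control, for Jchain, Tnfrsf17, Mzb1, Fcrla, Slc13a3 and Slfn9. Filled points are well above background, open points are not, and bars beside them are mean ± SD; the EB+T+E arrays lie above all 10 others in each panel, and EB+T+E array 3 is the lowest of its group for Jchain (2.90), Tnfrsf17 (-3.17) and Mzb1 (-3.72).

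Promoter sequence is shown for Jchain and Tnfrsf17 because both are plasma cell genes that were far higher in EB+T+E than in any other group. The RefSeq table for build GRCr8 held an entry for 109 of the 146 genes named by rule. Each line gives the 250 bases before the annotated start on the coding strand, Jchain at chr14:19822726-19822975 on the plus strand and Tnfrsf17 at chr10:4813773-4814022 on the minus strand. Capitals mark matches, on either strand, to 4 motifs searched in all 33469 promoters of that length: TTCNNNGAA, the palindrome that STAT proteins bind, found in 7.67% of them; TTCNNTTTC, a core of the interferon-stimulated response element, in 8.12%; CCAAT, in 34.0%; and TTTGAA, a form of the cell cycle homology region, in 16.2%. Overlapping matches are merged.
Jchain: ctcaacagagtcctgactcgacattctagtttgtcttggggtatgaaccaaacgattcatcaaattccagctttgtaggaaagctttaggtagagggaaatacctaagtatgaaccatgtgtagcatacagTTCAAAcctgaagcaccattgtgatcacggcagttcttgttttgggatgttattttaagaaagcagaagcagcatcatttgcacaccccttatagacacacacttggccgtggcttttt
Tnfrsf17: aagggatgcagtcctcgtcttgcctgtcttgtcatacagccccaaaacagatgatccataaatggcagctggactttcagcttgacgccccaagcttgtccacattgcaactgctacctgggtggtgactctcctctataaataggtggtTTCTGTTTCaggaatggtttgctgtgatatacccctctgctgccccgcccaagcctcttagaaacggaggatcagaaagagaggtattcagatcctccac
The TTCNNTTTC match in Tnfrsf17 lay 100 to 92 bases, and the TTTGAA match in Jchain 119 to 114 bases, before the start. Among the 55 called genes above the sum that had a promoter, 2 held TTCNNNGAA, 5 held TTCNNTTTC, 24 held CCAAT and 13 held TTTGAA. A match is a run of letters and was not tested as a binding site.

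Other cells and programmes of the immune system had 0 to 2 calls a list, where 0.638% of all genes were called above the sum. Most of their interactions were above 0, beside a median of -0.15 over all genes. Members of a list were read on the same arrays, so their signs are not separate results. On the list of T and natural killer cells, 34 of 36 measured genes had interactions above 0, with a list median of 2.64, and 1 passed the threshold: Ccr7, the receptor that brings lymphocytes to lymphoid tissue. Its levels were -3.24, -3.28 and -5.73 in EB+T+E arrays, and no EB, T+E or control array was well above background. EB+T+E was at least 8.20-fold higher than EB, at least 7.70-fold higher than T+E and at least 8.45-fold higher than control, with an interaction of 4.05 ± 0.95 (adjusted p = 0.0414). That call held in 3 of 13 fits that each left out 1 array, and its adjusted p was 0.158 without EB+T+E array 2. The T cell receptor subunit Cd3e had an interaction of 4.18 ± 1.12 (adjusted p = 0.0736), the kinase Lck 3.60 ± 0.96 (adjusted p = 0.0729) and the kinase Zap70 3.25 ± 0.83 (adjusted p = 0.0605). EB under T+E was called higher for 30 of the 36 genes (9.69% of all genes) and T+E after EB for 32 (10.6% of all genes).

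On the macrophage and dendritic cell list, 32 of 32 interactions were above 0, the median was 1.57 and 1 gene passed the threshold. This was Siglec1, a sialic acid-binding lectin of tissue macrophages, with levels of 1.38, 1.83 and 0.40 in EB+T+E arrays, -5.42, -3.96, -5.32 and -5.55 in EB arrays, -3.13, -2.03 and -3.49 in T+E arrays and -4.73, -4.90 and -5.20 in control arrays. The T+E arrays stood above all EB and control arrays and below all EB+T+E arrays. Its interaction was 4.20 ± 0.94 (adjusted p = 0.0311), past the threshold in 5 of 13 fits without 1 array and at an adjusted p of 0.127 without EB+T+E array 2. Ebi3, a subunit that interleukins 27 and 35 share, had an interaction of 3.72 ± 0.76 (adjusted p = 0.0164), with levels of 0.96, 1.41 and 0.78 in EB+T+E arrays and between -4.66 and -1.81 on the other 10. No gene of the MHC class II list (15 measured, median 2.10), the neutrophil list (36, of which 33 above 0, median 1.82), the complement list (25, median 1.31) or the lymphoid chemokine list (29, median 1.17) was called in the interaction.

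Of 42 interferon-induced genes, 40 had interactions above 0 and 2 passed the threshold, with a list median of 1.94. Stat2, which carries the type I interferon signal to the nucleus, had levels of 2.42, 2.61 and 2.24 in EB+T+E arrays, 1.05, 0.65, 1.13 and 0.79 in EB arrays, 0.60, 0.55 and 0.52 in T+E arrays and 0.86, 0.49 and 0.88 in control arrays. The EB+T+E arrays were narrow and above the rest, and the interaction was 1.71 ± 0.38 (adjusted p = 0.0299; 0.117 without EB+T+E array 2). Gbp4, an interferon-induced guanylate-binding protein, had levels of -3.90, -4.15 and -5.28 in EB+T+E arrays and was well above background on 1 of the other 10, an EB array. It had an interaction of 3.41 ± 0.79 (adjusted p = 0.0377; past the threshold in 4 of 13 fits without 1 array) and was at least 5.99-fold higher in EB+T+E than in T+E and at least 6.58-fold higher than in control rats. Slfn9, of the schlafen family, is on no list: its levels were -3.61, -4.04 and -4.19 in EB+T+E arrays and between -8.37 and -6.07 elsewhere, an interaction of 4.07 ± 0.79 (adjusted p = 0.0131) that was kept without each array in turn. EB under T+E was called higher for 37 of the 42 interferon genes (9.69% of all genes) and T+E after EB for 35 (10.6% of all genes).

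On the cell cycle list, 2 of 49 genes lay above the sum (0.638% of all genes), and 47 of 49 interactions were above 0. The list median was 1.83, beside -0.15 over all genes. Ccnb1, the mitotic cyclin B1, had levels of -2.07, -2.40 and -3.31 in EB+T+E arrays, -4.95, -5.29, -5.00 and -3.59 in EB arrays, -5.30, -4.61 and -5.36 in T+E arrays and -4.62, -3.26 and -4.01 in control arrays. Control array 2, at -3.26, was level with EB+T+E array 3, so the groups overlapped slightly. The interaction was 3.25 ± 0.79 (adjusted p = 0.0483; 0.16 without EB+T+E array 1). Aurkb, a kinase of chromosome segregation, had an interaction of 3.92 ± 0.94 (adjusted p = 0.0449), which was 0.65 after normexp background correction and lost its call there. Espl1, the separase that opens sister chromatids, had an interaction of 4.64 ± 1.09 (adjusted p = 0.0414). It averaged -3.75 in EB+T+E, -6.81 in EB, -6.37 in T+E and -4.80 in control rats, so EB and T+E means below control entered its interaction. Without each array in turn, the call held in 3 of 13 fits for Ccnb1, and in 4 of 13 for each of Aurkb and Espl1. EB under T+E was called higher for 26 of the 49 genes (9.69% of all genes) and T+E after EB for 27 (10.6% of all genes).

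Promoters of Gbp4 (chr2:233978236-233978485, plus strand) and Ccnb1 (chr2:33655226-33655475, minus strand) are printed as the called members of the interferon and cell cycle lists, with the same build, length and capitals.
Gbp4: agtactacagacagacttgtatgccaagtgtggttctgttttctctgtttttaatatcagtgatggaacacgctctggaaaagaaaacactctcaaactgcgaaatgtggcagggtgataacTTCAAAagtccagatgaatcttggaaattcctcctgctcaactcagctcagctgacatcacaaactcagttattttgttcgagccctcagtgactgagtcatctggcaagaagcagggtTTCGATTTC
Ccnb1: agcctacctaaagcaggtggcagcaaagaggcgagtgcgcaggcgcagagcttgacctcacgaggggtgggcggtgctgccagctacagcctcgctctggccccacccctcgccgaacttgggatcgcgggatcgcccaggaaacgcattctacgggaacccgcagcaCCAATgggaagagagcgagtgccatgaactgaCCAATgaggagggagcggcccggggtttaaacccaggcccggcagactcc
The TTCNNTTTC match of Gbp4 lay 9 to 1 bases before the start, and the CCAAT matches of Ccnb1 lay 82 to 78 and 50 to 46 bases before it.

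Other genes above the sum are not markers of a listed cell type. Slc13a3, a sodium-coupled transporter of dicarboxylates such as succinate, had levels of -0.89, -1.30 and -1.16 in EB+T+E arrays, -6.84, -4.56, -5.29 and -5.84 in EB arrays, -4.70, -4.35 and -5.07 in T+E arrays and -4.96, -4.73 and -4.98 in control arrays. The EB+T+E arrays were close together and well clear of the others, and the interaction of 4.33 ± 0.73 (adjusted p = 0.00482) had an adjusted p of at most 0.0243 with any 1 array left out. Pitpnm1, a phosphatidylinositol transfer protein, was at 2.02, 1.72 and 1.46 in EB+T+E arrays and between -0.15 and 0.52 on the other 10, an interaction of 1.53 ± 0.30 (adjusted p = 0.014). Trafd1, a zinc finger protein that restrains innate immune signals, was at 3.58, 3.46 and 3.01 in EB+T+E arrays and between 1.56 and 2.21 elsewhere, an interaction of 1.52 ± 0.31 (adjusted p = 0.0162). Both calls were lost without EB+T+E array 1, with adjusted p of 0.0687 for Pitpnm1 and 0.0754 for Trafd1, and that of Pitpnm1 also without T+E array 3 and that of Trafd1 without EB+T+E array 2.

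Another 4 genes named by rule had calls that held in few fits. The interaction was 4.54 ± 1.07 for the apolipoprotein Apoc1 (adjusted p = 0.0423), 4.16 ± 0.93 for Stat4, which relays interleukin 12 signals (adjusted p = 0.0327), and 3.89 ± 0.95 for the leukocyte surface antigen Ly6c (adjusted p = 0.0483). It was 3.74 ± 0.87 for the phospholipid flippase Atp10d (adjusted p = 0.0404). Stat4 averaged -3.79 in EB+T+E, -6.46 in EB, -6.42 in T+E and -4.92 in control rats. Atp10d averaged -1.30, -4.14, -3.55 and -2.65 in the same order. For both, EB and T+E means below control entered the interaction. Among 13 fits that each left out 1 array, the call held in 1 for Apoc1, 5 for Stat4, 2 for Ly6c and 4 for Atp10d.

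For 5 of the 149 genes above the sum the control mean, not the EB+T+E mean, was the highest: Garin3, Gsg1, Spata18, Cdca2 and Maz, of which Cdca2 and Maz were named after their values were seen. Gsg1, a protein of germ cells, had an interaction of 8.78 ± 2.16 (adjusted p = 0.0491), with control levels of -2.63, 3.60 and -4.04. Its call held in 3 of 13 fits without 1 array and in 3 of 11 other alternatives, and without control array 2 the value was 6.46 (adjusted p = 0.152). Spata18, a spermatogenesis-associated protein, had an interaction of 6.21 ± 1.50 (adjusted p = 0.0467), with control levels of -5.55, 0.45 and -6.27, and the call was lost in 11 of 13 fits without 1 array, the one without control array 2 among them (4.09, adjusted p = 0.098). Garin3, a gene of the acrosome in sperm, stood at -6.20 and -0.93 on 2 control arrays, the spot on the remaining control array having been left out as an outlier, and at -4.13, -4.71 and -6.86 on EB+T+E arrays. No EB or T+E array was well above background: EB+T+E was at least 3.69-fold higher than EB and at least 3.47-fold higher than T+E, and control was at least 11.7-fold higher than EB and at least 11.0-fold higher than T+E. Its interaction on measured values was 9.35 ± 1.40 (adjusted p = 0.00164; 6.72 without control array 2), and the sum of both effects, -14.6, lay below its measured level on every array, so the size of this value depends on the background level. The sum also lay far below every group mean for Gsg1 (-13.7) and Spata18 (-13.1), so the sizes of their interactions are limited as well. On the spermatid list 2 of 25 genes lay above the sum (0.638% of all genes), and its median of 3.88 was 1.89 without control array 2. The seminal vesicle list (8 genes, none called) had a median of 3.79, and 2.16 without that array. The B and plasma cell median was 3.73 without it. Whether the spermatid and seminal vesicle transcripts on control array 2 bear on other interactions was not tested.

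Among the 31 genes below the sum, a high T+E mean and a low EB+T+E mean were both common and often fell together. T+E had the highest mean for 22, with every T+E array above all others for 12 (1.47% of all genes tested), and EB had the highest mean for 9. EB+T+E had the lowest mean for 21, with every EB+T+E array below all others for 13 (9.91% of all genes tested). T+E without EB was called higher for 9 of the 31 (0.287% of all genes), and EB under T+E was called lower for 27 (11.7% of all genes). The median interaction was -3.07, with medians of 1.40 for T+E without EB and -2.30 for EB under T+E.

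Csn2, the milk protein beta-casein, was detected on all 3 T+E arrays and on 1 of the other 10. Its levels were -8.49, -6.95 and -9.26 in EB+T+E arrays, of which only the middle one was well above background, and -2.49, -4.34 and 1.40 in T+E arrays. EB arrays, at -8.07, -7.32, -8.96 and -9.49, and control arrays, at -9.12, -9.09 and -8.84, were not well above background. T+E was at least 39.0-fold higher than EB and at least 40.8-fold higher than control (T+E without EB, adjusted p = 5.67e-05), and Csn2 fell by 6.42 ± 0.93 in EB+T+E relative to T+E rats (adjusted p = 5.79e-05). The interaction was -6.98 ± 1.27 (adjusted p = 0.00853), with -4.38 and -10.54 within slides 3 and 4. It kept its call without each array in turn, at an adjusted p of at most 0.0357, and lost it in a fit of only the PND 145 arrays (adjusted p = 0.0535).

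Akr1b7, an aldo-keto reductase known from the mouse vas deferens and adrenal gland, had the smallest adjusted p of the named genes. Its levels were -7.30, -7.01 and -8.01 in EB+T+E arrays, the last not well above background, and -0.50, -2.23 and -2.57 in T+E arrays. No EB or control array was well above background, with measured values between -9.63 and -8.72. T+E was at least 40.8-fold higher than EB and at least 42.0-fold higher than control, Akr1b7 fell by 5.67 ± 0.53 in EB+T+E relative to T+E rats (adjusted p = 1.82e-07), and EB+T+E still exceeded EB by 1.84 ± 0.49 (adjusted p = 0.00898). The interaction was -5.62 ± 0.72 (adjusted p = 0.000211) and passed the threshold under every alternative that gave a value. The filter of 17 arrays left Akr1b7 out.

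Hgf, hepatocyte growth factor, a stromal ligand of the epithelial receptor Met, had levels of -4.67, -5.40 and -5.69 in EB+T+E arrays, -6.27, -5.75, -7.62 and -6.04 in EB arrays, -0.52, -1.72 and -0.16 in T+E arrays and -6.33, -7.04 and -7.49 in control arrays. T+E arrays were far above the rest, EB+T+E arrays came next without overlap, and EB and control arrays overlapped. Hgf was 6.15 higher in T+E than in control rats (adjusted p = 3.07e-07) and fell by 4.45 ± 0.56 in EB+T+E relative to T+E rats (adjusted p = 1.88e-05), and the interaction was -4.98 ± 0.77 (adjusted p = 0.00182), with -4.97 and -5.39 within slides 3 and 4. Mipep, a peptidase that trims proteins imported into mitochondria, had levels of 0.70, 1.17 and 1.46 in EB+T+E arrays, 1.52, 0.83, 1.81 and 1.14 in EB arrays, 4.91, 3.55 and 5.15 in T+E arrays and 1.28, 1.29 and 1.27 in control arrays. The EB+T+E, EB and control arrays overlapped while T+E stood above them, giving an interaction of -3.48 ± 0.59 (adjusted p = 0.00482). Dync2li1, a light intermediate chain of the dynein of cilia, had levels of -0.94, -0.19 and 0.68 in EB+T+E arrays, 2.40, 2.22 and 3.48 in T+E arrays and between -1.04 and -0.04 on EB and control arrays. Its interaction was -2.42 ± 0.51 (adjusted p = 0.0212) and was lost without EB+T+E array 1 or 2 or T+E array 3.

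**Figure D2:**
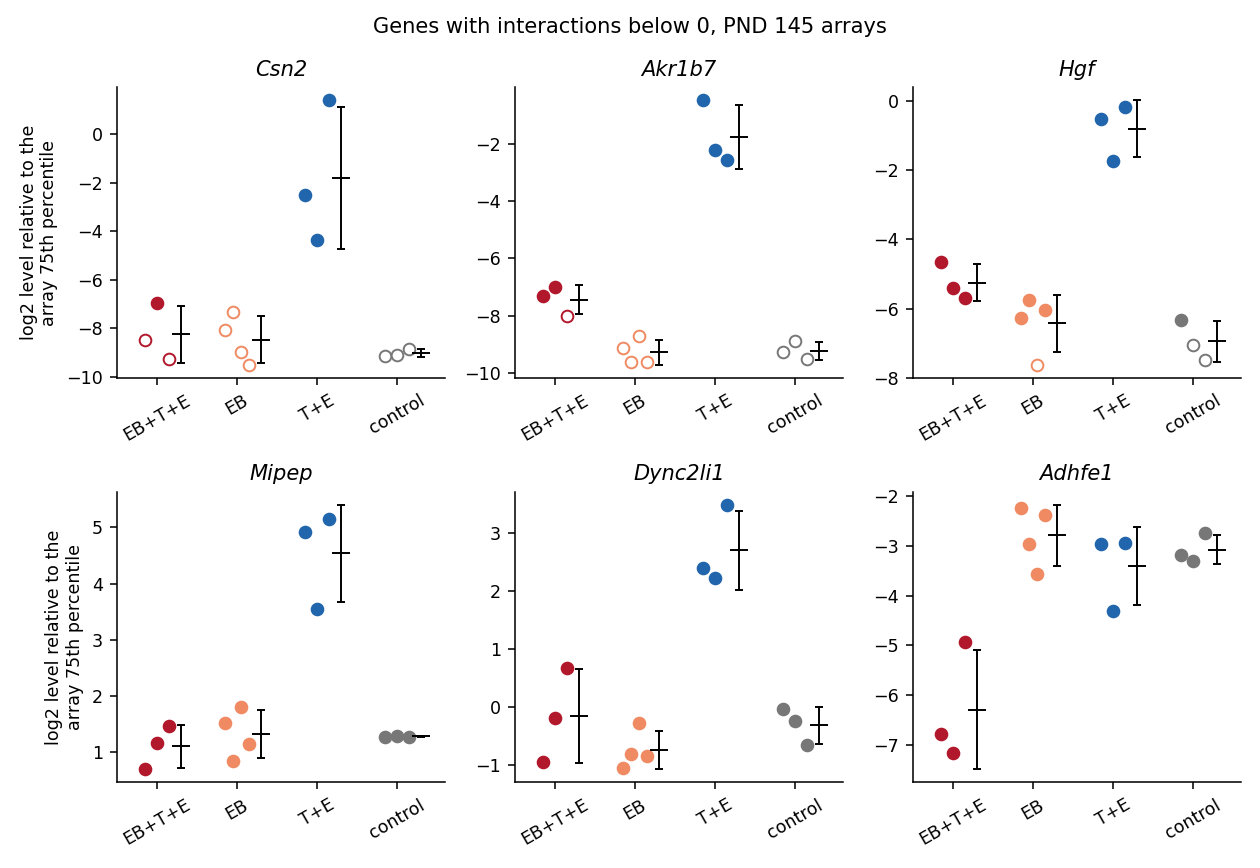
Log2 level relative to the array's 75th percentile (vertical axis) on each PND 145 array, by group from EB+T+E at the left through EB and T+E to control, for Csn2, Akr1b7, Hgf, Mipep, Dync2li1 and Adhfe1, with filled points well above background, open points not, and mean ± SD bars. T+E arrays lie above all others for the first 5 genes (Hgf -1.72 to -0.16), while for Adhfe1 the EB+T+E arrays are the lowest, at -6.78, -7.18 and -4.93.

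Another 6 genes with interactions below 0 were named by rule, each with its highest mean in T+E rats. The interaction was -5.59 ± 1.18 for Taar1, a trace amine receptor (adjusted p = 0.022), -5.49 ± 1.18 for the leucine-rich repeat protein Lrrn3 (adjusted p = 0.0245), and -3.49 ± 0.71 for Exoc4, a subunit of the exocyst (adjusted p = 0.0165). It was -3.86 ± 0.91 for the glypican Gpc2 (adjusted p = 0.0423), -2.45 ± 0.56 for the secreted hormone Stc1 (adjusted p = 0.0342) and -3.21 ± 0.78 for Ogdhl, a mitochondrial dehydrogenase subunit (adjusted p = 0.0483). Exoc4 had levels of -0.76, -0.51 and -0.03 in EB+T+E arrays, below all 10 others, which lay between 0.36 and 4.50. Lrrn3 had levels of -4.67, -5.54 and -6.39 in EB+T+E arrays, -5.23, -3.19, -3.77 and -3.85 in EB arrays, -1.43, -3.09 and -0.60 in T+E arrays and -6.14, -5.24 and -5.62 in control arrays, so that T+E arrays were the highest and EB+T+E and control arrays overlapped. Exoc4 kept its call in 10 of 13 fits without 1 array, Taar1 in 9 and Lrrn3 in 8, against 4 for Stc1 and Ogdhl and 3 for Gpc2.

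The promoters of Csn2 (chr14:20601574-20601823, plus strand) and Akr1b7 (chr4:64043720-64043969, plus strand) are printed because these genes had the lowest interactions of the named genes, with the same build, length and capitals.
Csn2: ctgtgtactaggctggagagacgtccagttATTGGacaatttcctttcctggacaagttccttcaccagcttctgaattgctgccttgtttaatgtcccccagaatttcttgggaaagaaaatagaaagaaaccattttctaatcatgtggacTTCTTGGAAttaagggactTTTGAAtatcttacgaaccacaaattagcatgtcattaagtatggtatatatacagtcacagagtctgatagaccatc
Akr1b7: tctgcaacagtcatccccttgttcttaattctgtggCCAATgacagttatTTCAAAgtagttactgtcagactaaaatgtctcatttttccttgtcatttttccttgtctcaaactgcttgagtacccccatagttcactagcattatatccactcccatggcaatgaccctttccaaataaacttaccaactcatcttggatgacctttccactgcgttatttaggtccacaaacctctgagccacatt
The TTCNNNGAA match of Csn2 lay 97 to 89 bases before the start. Of the 20 called genes below the sum that had a promoter, Csn2 was the only 1 with this motif, 13 held CCAAT, 3 held TTTGAA and none held TTCNNTTTC.

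Adhfe1, Padi3, Opcml and Ecrg4 had their highest mean in EB rats and their lowest in EB+T+E rats. Adhfe1, a mitochondrial transhydrogenase, had levels of -6.78, -7.18 and -4.93 in EB+T+E arrays, -2.24, -2.97, -3.57 and -2.37 in EB arrays, -2.95, -4.31 and -2.93 in T+E arrays and -3.18, -3.30 and -2.74 in control arrays. All EB+T+E arrays lay below the rest, which overlapped, and the interaction was -3.19 ± 0.75 (adjusted p = 0.0414). Padi3, an enzyme that converts arginine to citrulline in epithelial proteins, stood at -5.57, -4.93 and -4.88 in EB+T+E arrays, between -2.78 and -2.28 in EB arrays, between -4.32 and -3.37 in T+E arrays and between -3.84 and -3.79 in control arrays. EB arrays were thus the highest and EB+T+E arrays the lowest, an interaction of -2.35 ± 0.55 (adjusted p = 0.0414). Opcml, an adhesion molecule of the IgLON family, was not well above background on any EB+T+E array and had an interaction of -4.01 ± 0.87 (adjusted p = 0.0253). Ecrg4, the precursor of the secreted peptide augurin, had an interaction of -2.63 ± 0.64 (adjusted p = 0.0467). In fits without 1 array the call held in 7 of 13 for Opcml, 4 for Adhfe1 and 2 each for Padi3 and Ecrg4.

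**Figure D3:**
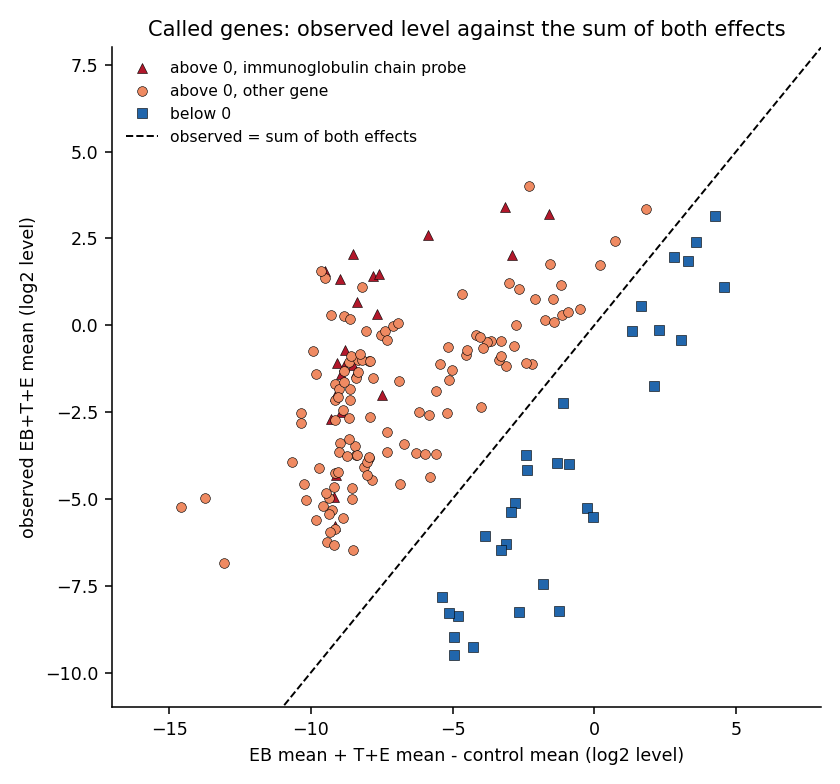
Observed EB+T+E mean (vertical axis, log2 level) of each of the 180 called genes against the level given by the sum of both effects, EB mean plus T+E mean minus control mean (horizontal axis, log2 level), with the dashed line where both are equal. Triangles are the 25 probes annotated as immunoglobulin chains, circles the other genes and unnamed probes above the sum, and squares the 31 below it. Jchain lies at an expected -2.31 and an observed 4.00.

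Hormone receptors and gene lists of hormone response had few calls. The 4 receptors given here did not pass the threshold in the interaction: values were -2.15 ± 0.65 for the estrogen receptor Esr1 (adjusted p = 0.109), -0.49 ± 0.94 for Esr2 (adjusted p = 0.869), -0.73 ± 1.64 for the prolactin receptor Prlr (adjusted p = 0.892) and -0.36 ± 0.95 for the progesterone receptor Pgr (adjusted p = 0.91). Esr1 averaged -5.85 ± 0.46 in EB+T+E, -4.62 ± 0.52 in EB, -4.49 ± 0.53 in T+E and -5.42 ± 0.51 in control rats (SD). It fell by 1.36 in EB+T+E relative to T+E rats (log2; adjusted p = 0.0424). Of 34 estrogen-responsive genes 1 (Stc1) lay below the sum (0.133% of all genes), as did 1 of 14 genes of the prolactin pathway and milk proteins (Csn2) and 1 of 46 genes of branching and developmental signals (Hgf), while none of 32 androgen-responsive genes was called. The medians of these lists were -0.32, -0.27, -0.41 and -0.33. None of 25 luminal epithelium genes (median -0.88) and none of 16 dorsolateral products (median -0.79) was called either.

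**Figure D4:**
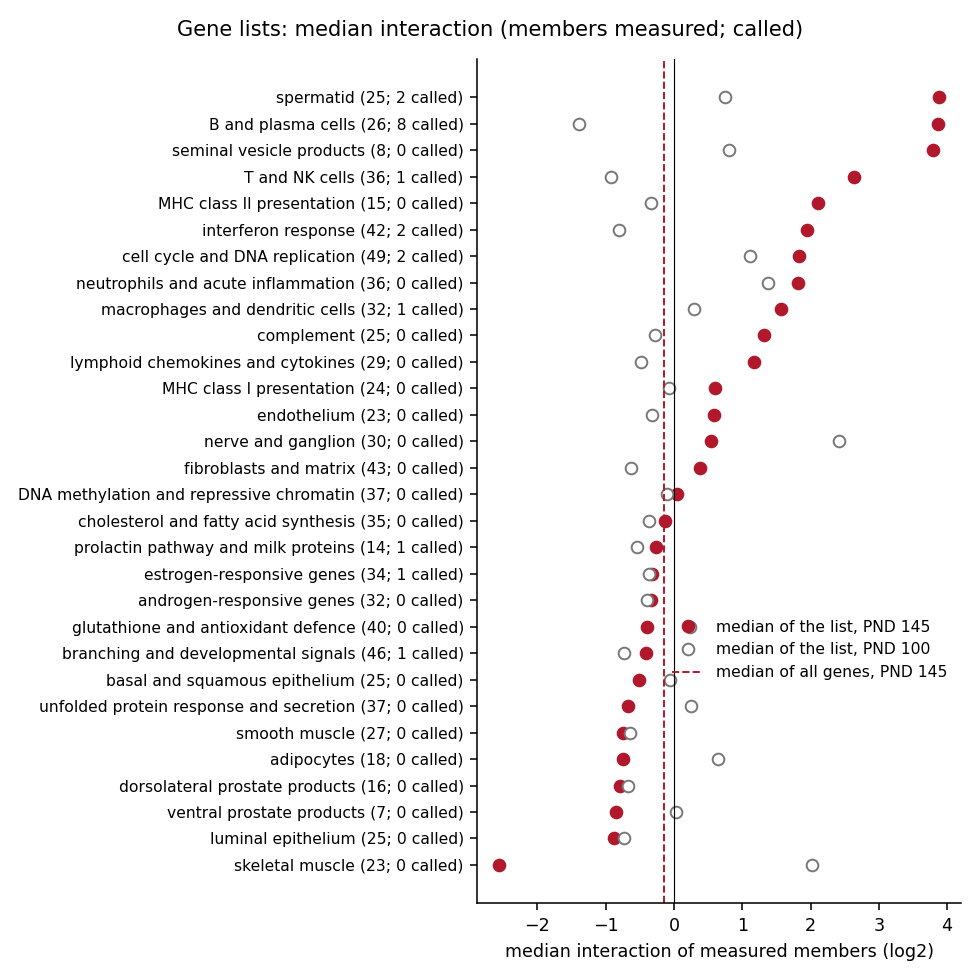
Median interaction (horizontal axis, log2) of each of 30 gene lists at PND 145 and at PND 100, with the median of all genes at PND 145 (-0.15) as a line. The B and plasma cell list is at 3.86 at PND 145 and -1.39 at PND 100, and the luminal epithelium list at -0.88 at PND 145.

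After 10 days of implants, at PND 100, no gene was called in the same interaction (0% of 23346; limma), where 2015 had an unadjusted p under 0.05. The difference between the interactions at PND 145 and PND 100 was called for 44 genes (0.188%), 43 higher at PND 145 (0.184%) and 1 lower (0.00428%), and 39 of them were also among the 149. Of the 149, 35 had an interaction above 0 at PND 100, and the median there was -0.77, against -0.06 for all genes. Of the 31, 21 were below 0 at PND 100, with a median of -0.68, and none was called in the difference between ages. Leaving out 1 array gave 0 to 351 calls at PND 100, the most without EB+T+E array 3 of that age, and 17 to 402 in the difference between ages, the fewest without EB+T+E array 1 of PND 145 and the most without EB array 1 of PND 100.

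Jchain had a difference between ages of 9.91 ± 1.78 (adjusted p = 0.0114), with an interaction of -3.60 ± 1.28 at PND 100. Its PND 100 levels were -3.67, -1.22 and -3.14 in EB+T+E arrays, -1.01, -1.85 and 4.29 in EB arrays, -4.86, -4.70 and -4.15 in T+E arrays and -5.05, -5.11 and -4.87 in control arrays. EB array 3 thus held the highest PND 100 level, and without it the difference between ages was 8.00 (adjusted p = 0.000188). Tnfrsf17 had a difference of 9.31 ± 1.87 (adjusted p = 0.0293), Mzb1 8.66 ± 1.72 (adjusted p = 0.0272) and Garin3 9.83 ± 1.95 (adjusted p = 0.029), all 3 on measured values that include groups not well above background. Pitpnm1 had a difference of 2.29 ± 0.44 (adjusted p = 0.0226) and Trafd1 2.25 ± 0.44 (adjusted p = 0.0269). Csn2 had an interaction of -2.91 ± 1.31 and Hgf of -2.56 ± 0.80 at PND 100, and neither differed between ages past the threshold, with adjusted p of 0.442 for Csn2 and 0.46 for Hgf.

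**Figure D5:**
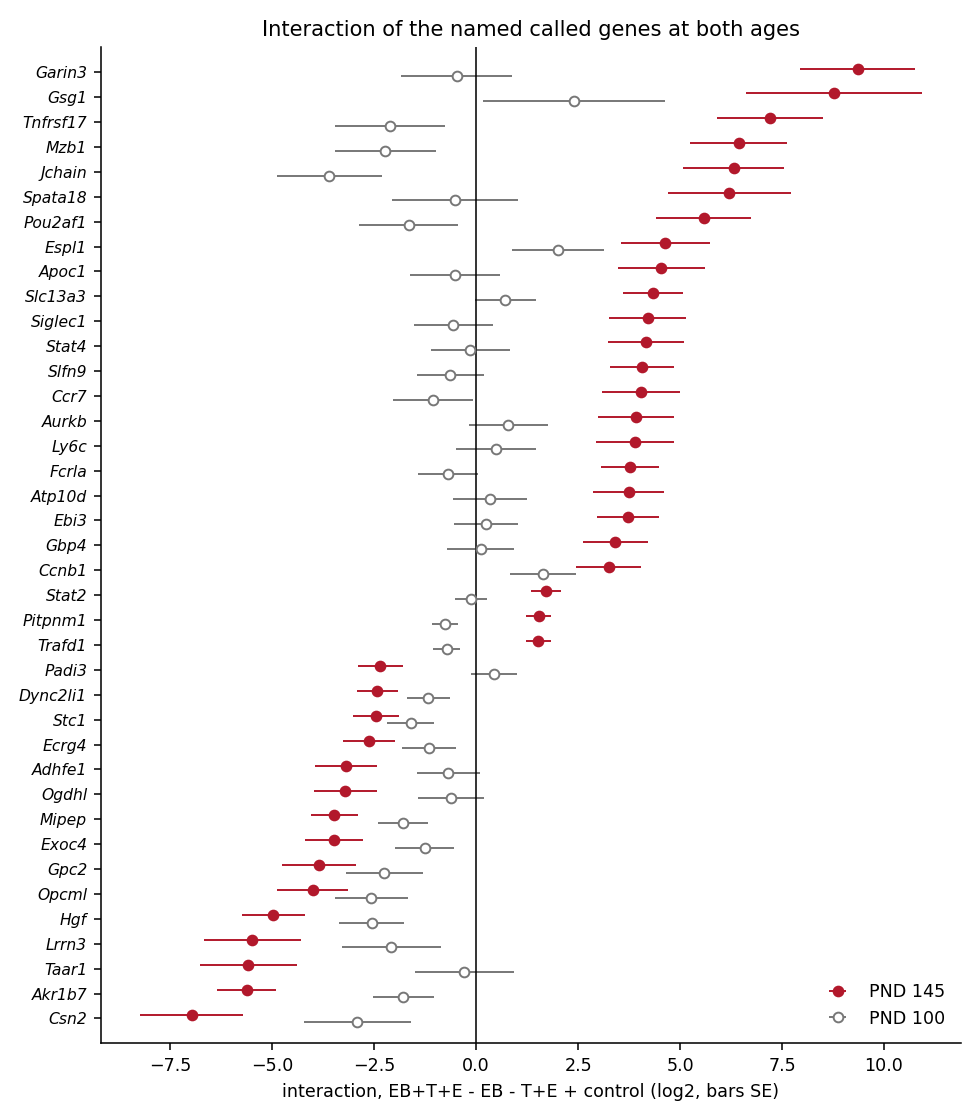
Interaction (horizontal axis, log2) with its SE at PND 145 and PND 100 for the 39 named genes called at PND 145. Jchain lies at 6.31 at PND 145 and -3.60 at PND 100, and Hgf lies below 0 at both ages, at -4.98 and -2.56.

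Calls in the interaction depended on single arrays. Leaving out 1 array at a time gave between 44 calls (without EB+T+E array 2) and 665 (without EB+T+E array 3, the EB+T+E array with the lowest immune levels), and all 180 genes kept their sign each time. The count was 55 without EB+T+E array 1, 52 without T+E array 1, 65 without T+E array 3, 87 without control array 2, 92 without control array 1, 104 without EB array 1, 103 without EB array 2 and 116 without EB array 4. It was 147 without EB array 3, 193 without control array 3 and 234 without T+E array 2. Without EB+T+E array 3, 178 of the 180 were called again, and without EB+T+E array 2, 43 were. Of the 39 named calls, 10 held without each array in turn: Slc13a3, Fcrla, Hgf, Mipep, Garin3, Tnfrsf17, Mzb1, Slfn9, Akr1b7 and Csn2. Within slides 3 and 4 the medians were 5.78 and 3.27 for the genes above the sum and -1.93 and -2.62 for those below it. Because the genes were called from these same arrays, their signs within slides and with 1 array left out are a description and no independent support.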

How the data were processed

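Total RNA was labelled with Cy3 and read on one-colour Agilent 8x60K arrays, 1 array per sample. Per the file headers, the image software was Agilent Feature Extraction 12.0.0.7 (protocol GE1_1200_Jun14, grid build rn4), and the deposited processed signal is a background-subtracted intensity. The scaling of the authors' deposited value table was not given in the sources used here. Its values ran with the scanner intensities, and it served as an alternative on the log2 scale. RNA integrity numbers were at least 8, per the study's protocols.

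From the deposited intensity, the log2 of each array's 75th percentile was subtracted from log2 of the processed signal. Control and outlier spots were left out, spots of a probe were averaged, and a probe was kept where at least 3 of the 33 arrays had it well above background (30543 probes). A gene was read from its brightest probe. Names came from the RefSeq table through accession (21184 of 45598 probes), symbol (9060) or synonym (406), or from the files (5247), and 9701 probes had none. Each probe without a name was counted as a gene of its own. Of 23346 genes, 15624 had a symbol.

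One limma fit (limma 3.58.1, R 4.3.3) over all 33 arrays, with a mean for each group and age, gave the contrasts, SEs and Benjamini-Hochberg adjusted p-values over all genes, with a threshold of 0.05. The fit was tested on simulated data. Replicate numbers were not treated as pairs.

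Named genes (146) were the 12 largest called interactions each way among genes with a symbol that were detected in every group, the 4 smallest p each way among called genes not above background in some group, up to 4 of each list by unadjusted p, the receptors Esr1, Esr2, Pgr and Prlr (1 further gene of the rule is not reported here), and the 3 smallest p each way in the difference between ages. The members and lists were chosen with earlier results of these data known, and immunoglobulin chains were identified from probe descriptions after values had been seen. The alternatives were other background corrections, scalings, filters, probe summaries, blocks, arrays and weights, the authors' deposited table, and sums on the linear scale, which were added after seeing the data. PND 30 arrays entered the fit only for the spread.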

Additional observations from a re-analysis of the deposited data

Results flagged for a closer look

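In the 4 EB arrays of PND 145, 1 array stood apart from the others by Dixon's criterion for 9 of 145 genes examined, where chance gives about 1 in 20. The count is close to that share, so the genes are listed as a description only. EB array 2 was high for Siglec1 (-3.96), the androgen-regulated Pmepa1 (-0.68) and the chemokine Ccl22 (-4.90), and low for the prostate secretory protein Scgb1d2 (3.99). EB array 1 was high for the cholesterol carrier Stard4 (-0.14) and low for the histone methyltransferase Suv39h1 (-2.23). EB array 3 was high for Fcrla (-3.77) and low for Esr1 (-5.40), and EB array 4 was high for the mitotic kinase Plk1 (-2.99). All are log2 levels relative to the array's 75th percentile.

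The interaction differed between PND 145 and PND 100 for 44 genes by a test of the difference itself. The named ones were Jchain (9.91), Garin3 (9.83), Tnfrsf17 (9.31), Mzb1 (8.66), Pitpnm1 (2.29) and Trafd1 (2.25), all above 0 at PND 145 and below 0 at PND 100. Of 25 fits that each left out 1 array of either age, the call held in 25 for Jchain, 23 for Pitpnm1, 16 for Trafd1, 14 for Mzb1, 13 for Garin3 and 11 for Tnfrsf17.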

How the results depend on the processing

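The 180 interaction calls at PND 145 became 154 with slide as a block, 145 after normexp background correction, 200 after quantile scaling, 122 without a filter, 189 with the mean of all probes and 162 in the authors' deposited table. They became 278 (234 above, 44 below) in a fit of only the groups compared, 25 (17 above, 8 below) with probes required to be well above background on 17 arrays, and 5832 (2474 above, 3358 below) with array weights, whose estimation stopped before it converged. The other counts with array weights were 1081 for the interaction at PND 100, 2717 for its difference between ages, 3122 for EB without T+E, 1428 for T+E without EB, 11875 for EB under T+E and 11759 for T+E after EB. In a fit of only the groups compared they were 12 for the difference between ages, 0 for EB without T+E, 23 for T+E without EB and 3559 for T+E after EB. EB without T+E, 133 genes, gave 34 with slide as a block and 30 after normexp correction. T+E without EB, 89 genes, gave 149 after quantile scaling, 47 with the filter of 17 arrays and 137 in the deposited table. The difference between ages, 44 genes, gave 70 after quantile scaling and 1 with the filter of 17 arrays. The cause was not tested.

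With the replicate number within age as a block, 54 genes were called (49 above, 5 below; 44 shared with the 180), 3 in the difference between ages, 6 for EB without T+E and 40 for T+E without EB. Same-numbered arrays gave correlations of their deviations from -0.241 to 0.178 over 18 pairs, with a median of 0.0635. Pairs with other numbers gave -0.287 to 0.303 over 45 pairs, with a median of -0.0234. These ranges overlap, so they cannot decide whether same-numbered arrays share a source of variation. At PND 145 the arrays numbered 2 were all on slide 3, and those numbered 3 were all on slide 4.

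Leaving out 1 array gave 44 to 665 calls in the interaction at PND 145, 0 to 351 at PND 100, 17 to 402 in the difference, 2346 to 5733 for EB under T+E, 6 to 221 for EB without T+E, 2781 to 6060 for T+E after EB and 53 to 177 for T+E without EB. The uncalled interaction of Pgr (-0.36) turned to 0.46 with array weights and ranged from -0.78 to 0.19 without 1 array, above 0 without EB array 2 (0.19), EB+T+E array 3 (0.05) or T+E array 2 (0.03). That of Prlr (-0.73) ranged from -1.95 to 0.25, above 0 without EB+T+E array 1. Of the 39 named calls, 25 were lost with the replicate block, 19 of the 30 kept by the filter of 17 arrays, 15 without a filter, 14 after normexp correction, 12 in the fit of only the groups compared, 11 with the slide block, 5 in the deposited table, 3 after quantile scaling and 1 with the mean of probes. All 39 named calls kept their sign in every alternative that gave a value. Leaving aside fits without an array, 9 also passed the threshold in each alternative that gave a value. Garin3, Tnfrsf17 and Akr1b7, which are among the 9, had no value with the filter of 17 arrays. Of the 180 calls, 85 could be tested with that filter. On the linear scale, 149 of 149 and 31 of 31 genes kept their sign. Signal near background limits the size of any effect in genes not detected in a group.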

Other observations

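Genes above the sum outside the naming rule, were singled out here after their values were seen. Defa5, an antimicrobial defensin of intestinal Paneth cells, had an interaction of 6.98 ± 1.65 (adjusted p = 0.0416), Kynu, the kynureninase of tryptophan breakdown, 5.35 ± 1.12 (adjusted p = 0.0212), F10, coagulation factor X, 5.28 ± 1.21 (adjusted p = 0.0366), and Slamf6, a receptor of lymphocytes, 4.93 ± 1.14 (adjusted p = 0.0383). None of these genes was well above background on any EB, T+E or control array, so the sizes of their interactions depend on the background level. EB+T+E was higher than each other group by at least 31.1-fold for Defa5, 10.4-fold for Kynu, 21.0-fold for F10 and 9.51-fold for Slamf6. Syk, the kinase downstream of the B cell receptor, had 3.70 ± 0.90 (adjusted p = 0.0479), and the T cell factor Tcf7 had 2.85 ± 0.68 (adjusted p = 0.0436). Each had its highest mean in EB+T+E rats. The lipid transporter Abca7 had 1.96 ± 0.32 (adjusted p = 0.00335).

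Cell division genes were also called, and are likewise named after their values were seen: Cdkn3, a phosphatase of cyclin-dependent kinases, had an interaction of 3.67 ± 0.74 (adjusted p = 0.0162), Cks2, which binds those kinases, 3.30 ± 0.69 (adjusted p = 0.0194), and Pttg1, the securin that holds separase, 3.28 ± 0.79 (adjusted p = 0.0467). Cdkn3 averaged -3.65 in EB+T+E, -5.59 in EB, -5.56 in T+E and -3.82 in control rats. Its EB+T+E and control means were thus close, and its EB and T+E means were lower than both. In the same group order, Cks2 averaged -0.48, -2.95, -3.11 and -2.28, and Pttg1 -0.65, -2.80, -2.91 and -1.78. Below the sum, changes were smaller for Kif5b, a kinesin heavy chain, at -1.20 ± 0.27 (adjusted p = 0.0338), and Vkorc1, the vitamin K epoxide reductase, at -0.85 ± 0.20 (adjusted p = 0.0458), both with the lowest mean in EB+T+E rats and the highest in T+E rats.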
